A study of Homo sapiens with 8 samples.

Results

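The 6 genes described here act in the sensing of LPS and in inflammatory signalling: TLR4, IRAK1, LIF, HLA-C, TNFRSF14 and ISG15. They were taken as the rows of the deposited table of differential m6A peaks whose gene ID is ENSG00000136869, ENSG00000184216, ENSG00000128342, ENSG00000204525, ENSG00000157873 or ENSG00000187608. Each gene had a single listed peak, so the 6 genes of 1103 gene IDs gave 6 of the 1262 peaks. The list was drawn up by gene function with earlier results of this table known. The cells were ARPE-19, an established human retinal pigment epithelium (RPE) line, infected with a lentivirus against METTL3 (shMET, labelled METTL3 knockdown) or with a negative control (shNC, labelled Scramble) and selected with puromycin. Both groups received 1 μg/ml LPS for 24 h, and no unstimulated sample belongs to the series, so the values compare METTL3 silencing under LPS and not LPS with rest. MeRIP-seq reads mRNA fragments captured by an antibody to m6A (IP) and, for comparison, the fragments before capture (input). Each group had 3 IP libraries and 1 input library, 8 libraries in all.

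The table combines libraries. Each peak has a single enrichment over input, taken here to cover the libraries of both groups, while the change compares the groups. The table holds no value for a single library, so depth and the spread between replicates are unknown. The groups were not tested against each other here. For each peak the authors gave the position, the exon blocks, the fold enrichment of IP over input with its p-value, and the log2 fold change in m6A with its q-value. In RNA from whole cultures, fewer cells with a methylated transcript and less methylation in each cell cannot be told apart. How much of each mRNA the 2 groups held was not analysed here. The table lists differential peaks and no expression level, so the RPE identity of the cells could not be checked against marker genes.

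m6A is a methyl mark on adenosine within mRNA. METTL3 is the catalytic subunit of the complex that writes it, and the proteins that bind the mark affect the fate of the transcript. LPS, a component of the outer membrane of Gram-negative bacteria, is bound by TLR4 with its partners, and the signal passes through the adaptor MYD88 and IRAK kinases to TRAF6 and NF-κB, or through TRIF to IRF3 and interferon. Cytokines, antigen presentation, receptors of the TNF family and interferon-stimulated genes lie downstream of these routes. RPE cells form the outer blood-retinal barrier, and in ocular inflammation they release cytokines of this kind.

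All 6 peaks were lower in the METTL3-silenced cells, with log2 fold changes from -3.23 to -0.45. Among all listed peaks, 72.1% were lower (95% Wilson interval 69.6% to 74.5%, for counting error only). Nothing can be read from the direction of 4 of the genes. Which group is the numerator of the change is not stated in the table, and the sign was read from genes that had been picked for lower m6A in the silenced cells. Of the genes picked, 14 were used here, TLR4, IRAK1, LIF and HLA-C among them. All 17 peaks of the 14 were negative, and so were the 13 peaks of the 10 genes that are left without those 4. TNFRSF14 and ISG15 had no part in that choice. They were taken, though, with earlier results of this table known, so their direction is no independent observation either. The reading is likely, since the peaks of the 14 genes carry one sign. Under the opposite one every direction given here would turn, and 352 of the 1262 listed peaks and none of the 6 would be lower. A fall of at least 1 on the log2 scale was seen at 4 of the 6 peaks, against 60.5% of all listed peaks. A lower peak with a q-value at or under 0.01 was found for 4 of the 6 genes, against 51.1% of all listed peaks. With the sign turned, these shares of the table would be 16.8% and 17.4%, with none of the 6 genes among them. The limits were not met by the same 4 genes: TLR4 and IRAK1 reached the fall but not the q-value, and LIF and HLA-C the reverse.

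In the median the 6 peaks changed by -1.35 on the log2 scale, all 910 lower peaks by -1.70 and all 1262 peaks by -1.29. Only TLR4 fell by more than the median lower peak. Enrichment over input varied 18.4-fold among the genes, from 1.85 at ISG15 to 34.1 at TLR4, with a median of 7.11 against 8.43 over the table. The spliced width, the sum of a peak's blocks, ran from 207 nt at ISG15 to 1165 nt at LIF, with medians of 344.5 nt for the 6 peaks and 419 nt for the table. The plot of change against enrichment sets the 6 peaks among all others.

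**Figure D1:**
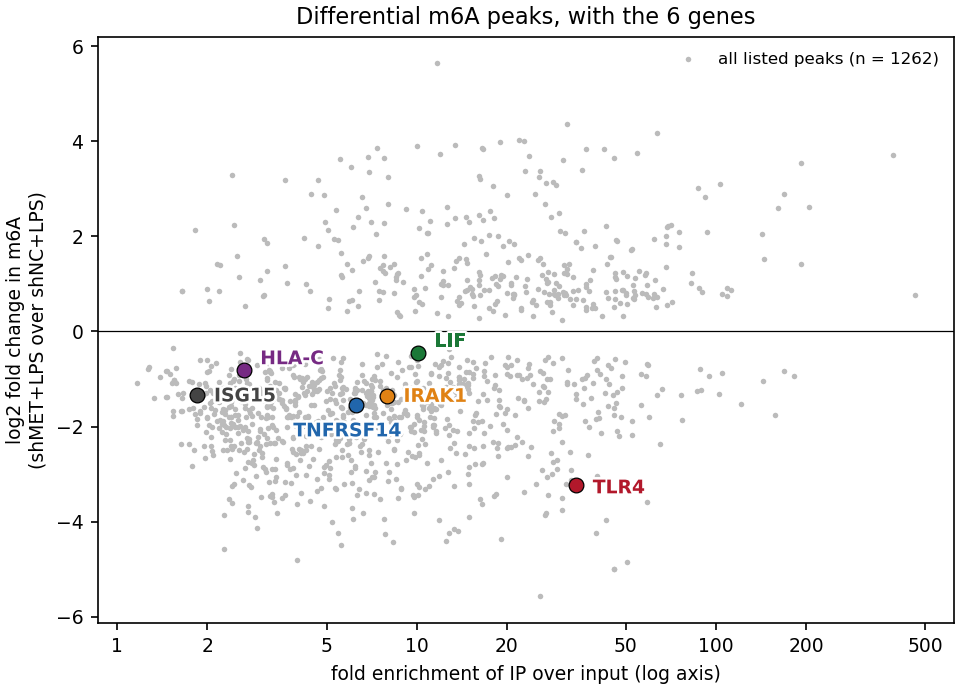
Each grey point is 1 of the 1262 listed peaks, by fold enrichment of IP over input (log axis) and by log2 fold change in m6A, shMET+LPS over shNC+LPS. The 6 coloured points are the peaks of the named genes, and TLR4, at an enrichment of 34.1 and a change of -3.23, lies apart from the other 5, whose enrichment was at most 10.1.

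TLR4, the receptor that starts the response to LPS, had the largest fall of the 6 genes. Its peak lies on chromosome 9 from 117715413 to 117716342 of hg38, on the plus strand, in 1 block of 930 nt. The log2 fold change of -3.23 leaves 10.7% of the control's m6A enrichment, and 79 of the 1262 peaks (6.26%) fell by more. The peak was wide and strongly enriched as well: 88.0% of all listed peaks were narrower, and 86.5% were less enriched than its 34.1-fold. Peaks of this kind were lower less often than the table as a whole. With all peaks divided by enrichment into 5 bins of like size, 43.5% of those in the most enriched bin were lower. Divided by width in the same way, 53.0% of the widest bin were lower, and 0.791% of that bin fell by more than TLR4. Only 8 other peaks were at least as enriched and fell at least as much. They belong to 8 gene IDs, and their log2 fold changes ran from -5.00 to -3.31. Their peaks lie in the spans of TMC6 (2 IDs), RIMS2, EMP3, ANXA2 and MUC6, and 2 IDs were given no name. The 2 in the span of TMC6 had the same enrichment (45.8) and q-value (0.0263), so they may not be separate measurements.

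The statistical support for the TLR4 peak was weak beside its size. Its q-value for the change was 0.0288, and only 127 of the 1262 peaks had a larger one, while the largest of the table was 0.05. The p-value of IP over input was 6.3e-13. Of the 112 peaks whose enrichment was between 0.8 and 1.25 times that of TLR4, itself included, 4 had a larger p-value, and the median log10 p of the 112 was -152. The 8 other peaks that were at least as enriched and fell at least as much had p-values from 7.9e-42 to 2.5e-16. These too lie far above that median, though below the p-value of TLR4. Their q-values ran from 0.0011 to 0.0302, so weak support was not particular to TLR4. Both comparisons were chosen after the values were seen. The read counts behind the peak are not in the table, and their part in these values was not tested.

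IRAK1 is the kinase that is recruited to MYD88 and passes the signal on to TRAF6. Its peak lies on the minus strand of chromosome X from 154011515 to 154011873, in 1 block of 359 nt. The enrichment was 7.95-fold, close to the middle of the table, with 48.0% of peaks less enriched. The log2 fold change was -1.35 (q = 0.0275), leaving 39.2% of the control's enrichment, and 65.3% of the lower peaks fell by more. As at TLR4, the q-value stood near the end of the list, with 140 peaks above it. The change at the receptor was thus larger than at the kinase by 1.88 on the log2 scale, but without values for single libraries this difference has no error.

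LIF, a cytokine of the IL-6 family that signals through LIFR and gp130, had the smallest change and the widest peak. The peak lies on the minus strand of chromosome 22 from 30242714 to 30243878, in 1 block of 1165 nt, and 93.3% of listed peaks were narrower. The enrichment was 10.1-fold, with the smallest IP-over-input p-value of the 6 genes (1e-149). Its log2 fold change of -0.45 (q = 0.000398) leaves 73.0% of the control's enrichment. Of the 910 lower peaks 2 fell by less, those of AFF4 (-0.37) and SPTBN1 (-0.36). The LIF peak thus kept most of its enrichment in the METTL3-silenced cells.

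TNFRSF14 (also HVEM), the receptor for the ligand LIGHT and for BTLA, had the second largest fall. Its peak lies on the plus strand of chromosome 1 between 2563501 and 2565053. It consists of a block of 329 nt and a block of 1 nt, and it is the only one of the 6 with more than 1 block. Several blocks were listed for 452 of the 1262 peaks. The TNFRSF14 peak was enriched 6.26-fold, and its log2 fold change of -1.55 (q = 4.57e-05) leaves 34.2% of the control's enrichment. It sat in the middle of the lower peaks by both measures: 50.2% of them were less enriched, and 55.8% fell by more.

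HLA-C, a class I molecule that presents peptides to CD8 T cells and binds receptors of NK cells, combined a small fall with the smallest q-value. The peak lies on the minus strand of chromosome 6 from 31271563 to 31271832, in 1 block of 270 nt. Its log2 fold change of -0.82 leaves 56.6% of the control's enrichment, and 91.3% of the lower peaks fell by more. The q-value was 3.02e-10, and 107 of the 1262 peaks had a smaller one. The enrichment was 2.64-fold, and 12.1% of the listed peaks were less enriched. Class I genes share long stretches of near-identical sequence and differ between people, and how reads that match several of them were placed is not given in the sources used here, so the peak is uncertain as a measure of HLA-C alone.

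ISG15, the ubiquitin-like protein that interferon induces and that is joined to other proteins, had the least enriched and narrowest peak. It lies on the plus strand of chromosome 1 from 1014305 to 1014511, in 1 block of 207 nt. IP was 1.85-fold over input, and 3.01% of listed peaks were less enriched (13.0% among peaks of the same width bin). It changed by -1.34 on the log2 scale (q = 6.61e-07), leaving 39.5% of the control's enrichment. In size this change was like that of IRAK1, while 201 peaks had a smaller q-value than ISG15 and 1118 a smaller one than IRAK1. In the least enriched of the 5 bins, to which ISG15 and HLA-C belong, 92.5% of peaks were lower, so a fall there is the common direction.

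The order by size of the fall was TLR4, TNFRSF14, IRAK1, ISG15, HLA-C and LIF. By q-value, from the smallest, it was HLA-C, ISG15, TNFRSF14, LIF, IRAK1 and TLR4. The gene with the largest change thus had the largest q-value, and the pair with the smallest q-values, HLA-C and ISG15, had the least enriched peaks. IRAK1 and ISG15 differed by 0.01 on the log2 scale, and whether any neighbours in the order differ beyond the spread of replicates is unknown. The plot of ranks shows how the 5 measures part within a gene.

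**Figure D2:**
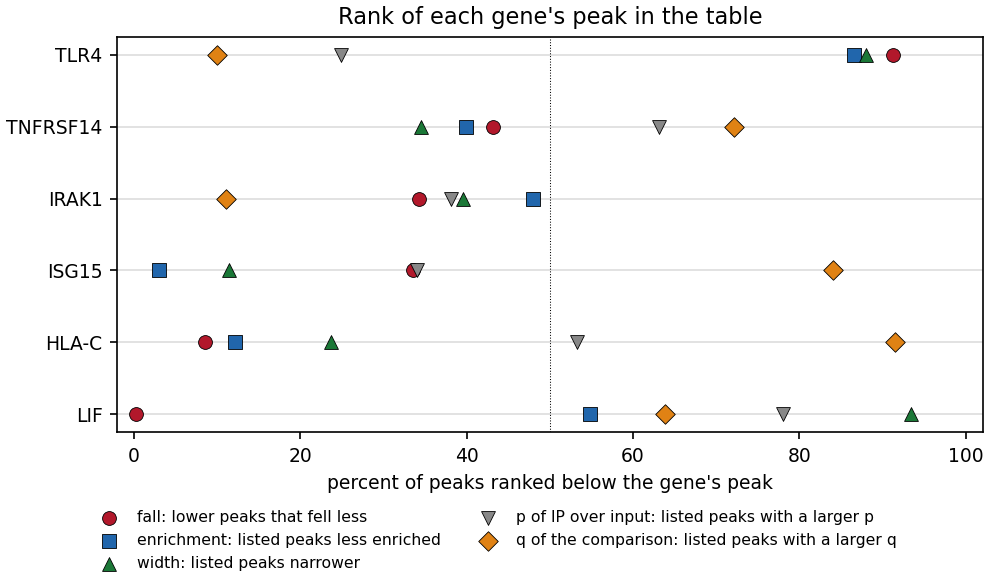
Rows are the 6 genes in the order of their fall, and the horizontal axis is the percent of peaks that rank below the gene's peak, over the 910 lower peaks for the fall and over all 1262 for the other measures. At TLR4 the fall, enrichment and width lie at 86.5% or above and the q-value at 10.1%, and at HLA-C the fall lies at 8.57% and the q-value at 91.4%.

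The position along the gene was taken from the RefSeq span on GRCh38.p14, the build that the submitters' processing notes also name (as hg38). Exons and coding regions were not part of the annotation used here, so the transcript region is not given. Peaks of the table were most frequent toward the ends of genes. Of 1148 peaks inside a named gene, 49.3% had their midpoint at or beyond 80% of the span and 14.9% before 20%. A smaller cluster lay at the start, where the first 5% of the span held 89 peaks, 83 of them lower. IRAK1 and ISG15 belong to the group beyond 80%, with midpoints at 87.4% and 87.3% of the span. The ISG15 peak ends 29 bases before the end of the gene, closer than all but 2.35% of these peaks. ISG15 is also a short gene of 1044 bases, and its peak covers 19.8% of the span. The LIF peak covers nearly as much of its gene (18.5%), that of HLA-C 8.07%, and those of TLR4, IRAK1 and TNFRSF14 from 3.44% to 4.57%.

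The first block of TNFRSF14 ends on the last base of the RefSeq gene, and the block of 1 nt lies 1224 bases beyond it. Of the 330 nt, 329 thus fall at the very end of the RefSeq gene, and what lies at the other block was not analysed here. HLA-C lay on the other side, with a peak that starts 260 bases after the gene's start and a midpoint at 11.8% of the span. TLR4 and LIF peaks lay in the middle, at 56.4% and 54.9%, with 8393 and 2261 bases between the peak and the end of the gene. All 6 genes were shorter than the median gene length over the 1148 peaks inside a named gene (38304 bases). Each gene counts there once for each of its peaks. Each peak touched the RefSeq span of its own gene only, and none shared a base with another listed peak on either strand.

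**Figure D3:**
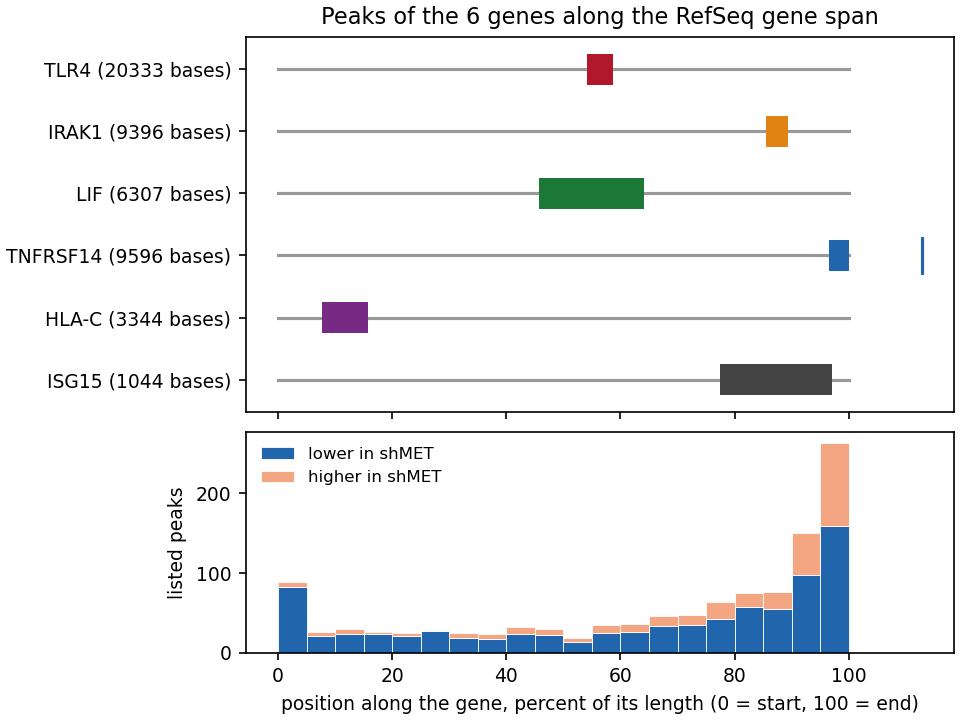
The upper panel shows the blocks of each peak along the RefSeq gene, drawn in the direction of transcription from 0 (start) to 100 (end) percent of its length, with the gene's length in parentheses. The lower panel counts the midpoints of 1148 listed peaks inside a named gene in steps of 5 percent by direction of change. The bars are highest from 90 to 100 percent, where the first TNFRSF14 block lies. IRAK1 and ISG15 have their midpoints just before this part, and HLA-C lies near the start.

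Other genes of the same routes were looked up in 6 lists with 187 genes in all, TLR4, IRAK1, LIF, HLA-C, TNFRSF14 and ISG15 included. A listed peak overlapped the span of 19 genes, of which 12 had only lower and 7 only higher peaks. The share of all genes that had a listed peak is not given here. Whether these lists hold more or fewer genes with a peak than others can thus not be read from the counts here or below. The 24 peaks had a median change of -1.20 on the log2 scale, near the -1.29 of the whole table, and 16 of them were lower, beside 72.1% of all listed peaks. Without the 6 genes, 13 remained, 6 with lower and 7 with higher peaks. Their 18 peaks had a median change of -0.81, and 10 of them were lower. A gene without a listed peak may have no m6A, no change, or too few reads to tell.

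In TLR4 signalling, 5 of 43 genes had a listed peak, 4 of them lower. IRF3, the transcription factor at the end of the TRIF route, had 2 lower peaks under its ID on the minus strand, with log2 fold changes of -2.60 (enrichment 37.4) and -2.90 (enrichment 3.35). Another peak in this span, at -3.75 with an enrichment of 30.6, belongs to a different ID on the plus strand. This one and the more enriched IRF3 peak touch the span of BCL2L12 as well and share bases, so their reads cannot be assigned to 1 gene. JUN, a subunit of AP-1, had a strongly enriched peak that fell little (enrichment 30.7, log2 fold change -0.57) and a weakly enriched one across the start of the gene that fell more (1.89 and -1.68). The exception was TAB2, an adaptor of the kinase TAK1 below TRAF6, whose peak rose by 0.32 (q = 0.00234). CD14, LY96, MYD88, TRAF6 and the NF-κB subunits had no listed peak.

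The 2 genes of 21 in the IL-6 and LIF family list went in opposite directions. LIF fell by 0.45, while IL6ST, which encodes gp130, the signalling chain of the LIF receptor, rose by 0.92 at a peak with 109-fold enrichment (q = 4.68e-07). A peak of another ID on the opposite strand of the IL6ST span, at 0.97, shares bases with this one, so it is not a separate measurement. In MHC class I presentation, NLRC5, the transactivator of class I genes, fell by 3.50 on the log2 scale (q = 0.00263), and HLA-C was the other lower gene of 21. The peak in the span of HLA-F was on the opposite strand, under an ID named HLA-F-AS1, and rose by 3.12 (q = 0.0372).

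Of 33 genes of the TNF receptor list, 4 had a listed peak. TNFRSF14 and TNFRSF12A, the receptor of TWEAK (log2 fold change -1.06, q = 0.0011), were lower. TNFRSF10B, a death receptor for TRAIL, and TRAF3, an adaptor that restrains NF-κB signalling below several of these receptors, were higher, with changes of 0.40 and 2.31. In the interferon list, 4 of 44 genes had a listed peak. ISG15, TRIM25, a ubiquitin and ISG15 ligase (-2.02), and a peak in the span of IRF9, a part of the interferon-activated factor ISGF3 (-1.38), were lower. The IRF9 peak has 5 blocks, and its ID was tied to that gene by position only. IFNAR1, a chain of the type I interferon receptor, was higher, with a change of 2.21 at a 68.9-fold enriched peak. TRIM25 also holds a peak of another ID on the opposite strand, at -1.96, which shares bases with its own peak. The only gene of 25 cytokines, chemokines and adhesion molecules was ICAM1, which binds leukocytes, with a rise of 0.81 (q = 2e-16). IL1B, IL6 and CXCL8 had no listed peak.

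Among the other genes of these lists, counting only peaks under the ID named as the gene, 8 peaks were lower and 6 higher. The higher ones had enrichments from 7.03 to 109 (median 26.4), and the lower ones from 1.89 to 37.4 (median 3.45). Lower peaks were the less enriched ones over the whole table too, with a median of 6.22 against 8.43 over all peaks. The lower peaks of these routes with an enrichment of 30.6 or more were those of TLR4, IRF3, the plus-strand ID in its span, and JUN.

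**Figure D4:**
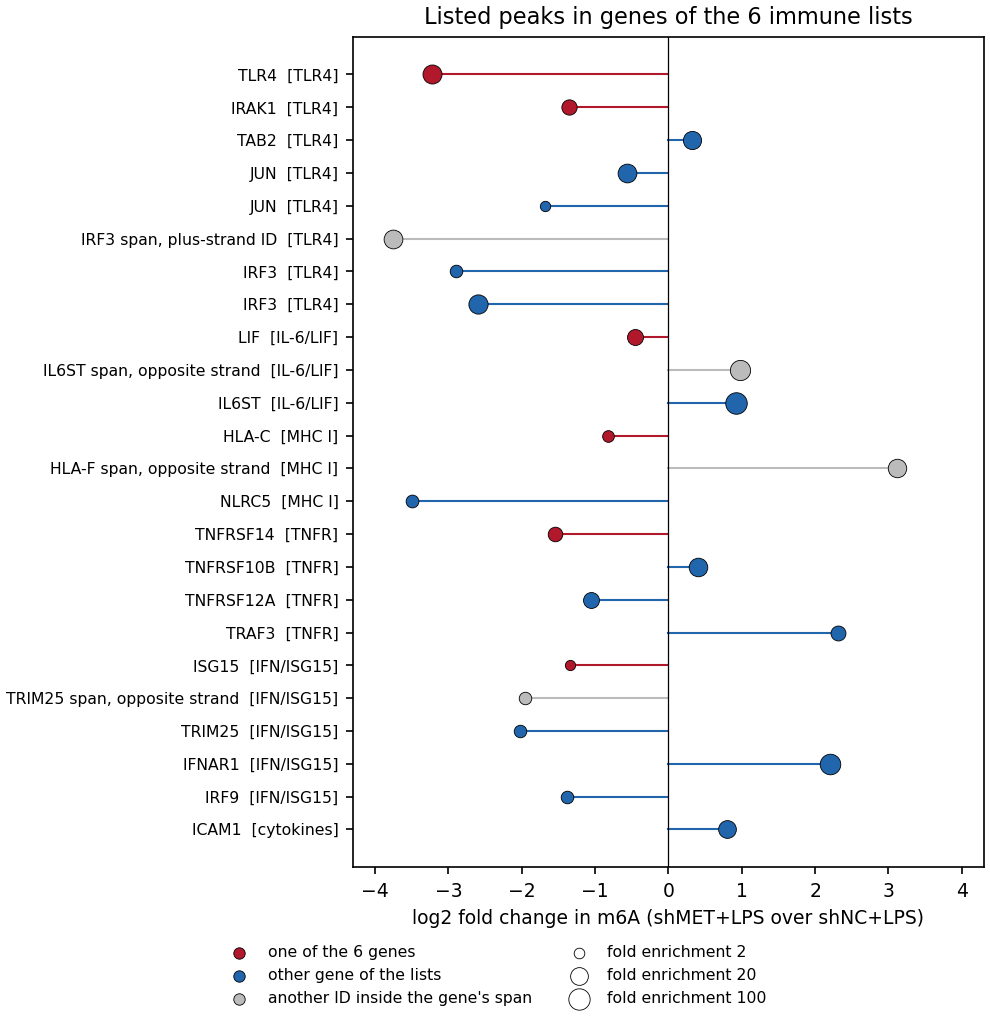
Each row is a listed peak in the span of a gene of the 6 lists (list in brackets), the horizontal axis is the log2 fold change in m6A, shMET+LPS over shNC+LPS, and the point's area grows with the fold enrichment. The 6 genes (red) all lie left of 0, and TAB2, IL6ST, TNFRSF10B, TRAF3, IFNAR1, ICAM1 and the opposite-strand peaks in the spans of IL6ST and HLA-F lie right of it.

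The named peak most like each of the 6 was found from the distance in log2 enrichment, log2 fold change and log2 width, each divided by its SD over the 1262 peaks. TNFRSF14 was nearest to EPB41L3 (distance 0.0248 SD, log2 fold change -1.59, 331 nt) and IRAK1 to PLEKHA5 (0.0553 SD, -1.34, 360 nt). ISG15 was nearest to HDLBP (0.133 SD), HLA-C to RPL13A (0.135 SD) and LIF to TNKS1BP1 (0.182 SD). TLR4 had the most distant neighbour, CAMK2B at 0.238 SD, with an enrichment of 28.4 and 871 nt. The likeness is one of peak shape and change over the combined libraries, with 1 value for each peak.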

How the data were processed

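MeRIP-seq values of 2 groups with 3 IP libraries and 1 input library each were analysed. The submitters' processing notes name hg38, CASAVA, fastp 0.19.11 and MACS2 2.1.0 without their roles, and the 18 columns of the deposited table have names of the form that exomePeak uses. Thresholds and annotation are not given in the sources used here. The authors deposited the p-value and the fold enrichment (ratio) of IP over input, the log2 fold change between the groups, and a negative score, the log10 of its q-value, from which q was computed. These columns are the authors' own comparison and are printed as deposited. The largest q is 0.05, so peaks without a difference are not listed.

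Positions were made 1-based and widths summed over blocks. Ranks are the percent of listed peaks below a value, and p-values listed as 0 were set to 1e-300 for the median of log10 p. An ID took its name by position: from a single RefSeq gene that holds all its peaks on the same or an unstated strand (the only protein-coding one where there were several), or else from the only protein-coding gene touched; 1046 of 1103 IDs got a name. List genes were matched by span on either strand (1 shared base). The genes and lists were chosen with earlier results of these data known. The named genes were the 6 genes, list genes with a listed peak, the nearest peaks (1 is not reported here) and the most similar peaks, and the genes of the direction rule. AFF4, SPTBN1 and the genes as enriched and as lowered as TLR4 were named after their values were seen. Functions were tested on simulated data. The work used Python 3.11.15 with scipy 1.17.1, numpy 2.4.6, matplotlib 3.10.9 and pandas 2.3.3.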

Additional observations from a re-analysis of the deposited data

How the results depend on the processing

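The share of lower peaks, 72.1%, became 78.3% when only changes of 1 or more on the log2 scale, up or down, were kept and 74.6% with q at or under 0.01; the cause was not tested. Keeping peaks enriched 2-fold or more gave 71.2%, and counting overlapping peaks once gave 72.6%. Of the 6 genes, 4, 4 and 5 kept a lower peak under the first 3 of these limits. Same-strand matching left 18 of the 19 list genes, without HLA-F. Of 48 alternative ranks of the 6 peaks, 26 stayed within the 95% Wilson interval of the first rank. Those were all 24 with 1 peak per gene ID or overlapping peaks kept once, and 2 of the 24 within the same direction or the same of 5 width bins. Within its width bin, LIF fell from the 54.8th to the 13.8th percentile of enrichment and TLR4 from the 86.5th to the 64.0th, while the share of peaks less enriched than ISG15 rose from 3.01% to 13.0%. In the same bins the share of peaks with a larger fall went from 47.4% to 75.5% for ISG15 and from 6.26% to 0.791% for TLR4. With the end of a peak in place of its midpoint, ISG15 moved from 87.3% to 97.1% of the span, LIF from 54.9% to 64.1%, HLA-C from 11.8% to 15.8%, TLR4 from 56.4% to 58.7%, IRAK1 from 87.4% to 89.3%, and TNFRSF14, already past the end of its span at 105% through its block of 1 nt, to 113%.

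No paired analysis was possible because libraries were combined before the values were made, and no replicate was left out for the same reason.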

Other observations

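Of 19 genes of the m6A machinery, WTAP, the adaptor that brings METTL3 and METTL14 to nuclear speckles, was the only one with a listed peak. The peak was 68.6-fold enriched and higher in the METTL3-silenced cells, with a log2 fold change of 2.20 (q = 0.00132). It touches the span of SOD2 as well. METTL3 itself had no listed peak. The table holds no expression level, so it gives no check of the knockdown. Of 11 RPE marker genes, KRT8 and KRT18 had a listed peak in their spans. It is the same peak, on the strand of KRT8, 2.29-fold enriched and changed by -1.65 on the log2 scale. Of 9 leukocyte and fibroblast markers none had a listed peak.

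The listed peaks nearest to ISG15, TNFRSF14, HLA-C, LIF and TLR4 were lower too. AGRN, the gene of an extracellular matrix proteoglycan, had 4 lower peaks on the same strand, the first of them 29481 bases from the ISG15 peak, with log2 fold changes of -1.11 to -0.74 and enrichments of 1.28 to 2.76. The nearest peaks to TNFRSF14, HLA-C, LIF and TLR4 were those of SKI, PRRC2A, SEC14L2 and CDK5RAP2, at 178626 to 2690772 bases, with log2 fold changes of -1.45, -1.24, -1.20 and -3.83. With 72.1% of the table lower, such neighbours are the common case.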
